A study of Mus musculus with 2 samples.

Results

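The genes described here encode the enzymes and transporters by which a cell takes up and reuses uridine and cytidine and makes CTP. They were chosen by symbol as the rows for *Uck1*, *Uck2*, *Uckl1*, *Upp1*, *Cda*, *Ctps*, *Ctps2*, *Slc29a1*, *Slc29a2* and *Slc29a3*, which are 10 of the 24421 gene symbols with a value. RNA was measured in granulocyte-monocyte progenitors (GMPs), the BM cells that give rise to granulocytes and monocytes, sorted from female mice whose labels give an F1 semi-syngeneic background (H-2b/d). One group bore no tumor (NTB-GMP), and the other carried 4T1 cells, a mouse mammary carcinoma line, implanted in the mammary gland (4T1-GMP). The labels name no other agent or engineered allele in either group, and neither the age of these mice nor how many were pooled in a library is given in them. Each group had 1 bulk RNA-seq library, so no difference below carries a replicate error, and no p-value was computed.

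Cells obtain pyrimidine nucleotides by de novo synthesis, which passes through dihydroorotate dehydrogenase (DHODH), or by salvage of nucleosides from outside the cell. In salvage, uridine enters through nucleoside transporters and is phosphorylated to UMP by uridine-cytidine kinases. This route does not need DHODH, which is why uridine can replace de novo synthesis in cells treated with a DHODH inhibitor such as brequinar (BRQ). UTP, the product of either route, is converted to CTP by the CTP synthases, and CTP serves RNA synthesis and the making of phospholipids. Dividing blood progenitors need large amounts of both nucleotides.

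The deposited values were reads divided by the length of the gene and the size of the library (RPKM). Ratios of 4T1-GMP over NTB-GMP are given as log2 ratios on the log2(RPKM + 0.1) scale, for genes whose mean RPKM reached 1, called tested genes. That scale understates the change of low genes. The whole reads behind each value could be recovered from its digits, and the interval beside each ratio is the 95% Clopper-Pearson interval on those reads for the ratio of the RPKM themselves. Reads are PCR products without molecular identifiers, so the intervals cover counting error only and compare these libraries, not the conditions. The library sizes came to 10180365.24 reads in NTB-GMP and 30016262.8 in 4T1-GMP, so a value in NTB-GMP rests on fewer reads than the same value in 4T1-GMP. Reads of the ribosomal RNA precursor *Rn45s* amounted to 16.95% of the size of the NTB-GMP library and 6.976% of that of the 4T1-GMP library. The log2 ratio of all 10378 tested genes had a median of 0.05, and their middle 50% lay between -0.26 and 0.32.

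*Uck2*, *Ctps* and *Slc29a2* were higher in 4T1-GMP, with log2 ratios of 0.47, 0.59 and 0.88. The last of these was under an RPKM of 1 in NTB-GMP and was tested only through its level in 4T1-GMP. *Ctps2* and *Slc29a3* were lower, with log2 ratios of -0.28 and -0.76. *Uck1*, *Uckl1* and *Slc29a1* had intervals that held 0 at the deposited scaling. Of the 10 genes, 8 were tested, *Upp1* lay under the minimum in its mean level, and *Cda* was listed at 0 in both libraries. Of the 8 tested, 4 had a log2 ratio above 0 and 4 below it, with a median of -0.003 and a range of -0.76 to 0.88. At least 1.5-fold higher were 2 of the 8, *Ctps* and *Slc29a2*, against 9.80% of all tested genes, and the count was 1 with a minimum mean RPKM of 5, which leaves *Slc29a2* out. At least 1.5-fold lower was 1 of the 8, *Slc29a3*, against 11.6%. The interval lay above 0 for 3 of the 8 and below 0 for 2, against 36.3% and 28.0% of all tested genes.

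The 8 tested genes held the same order of level in both libraries. From the highest to the lowest RPKM they ran *Uck2*, *Ctps*, *Slc29a1*, *Uck1*, *Uckl1*, *Ctps2*, *Slc29a3* and *Slc29a2*, with *Upp1* and *Cda* after them. In NTB-GMP, the exact Poisson intervals of *Ctps* and *Slc29a1*, of *Slc29a1* and *Uck1*, and of *Uckl1* and *Ctps2* overlapped. Overlap of separate intervals is not a test of order, and these neighbors were not compared directly. In 4T1-GMP the intervals of *Slc29a1* and *Uck1* overlapped, and those of the other neighboring tested genes did not. An order between genes also rests on the gene lengths by which the authors divided.

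**Figure D1:**
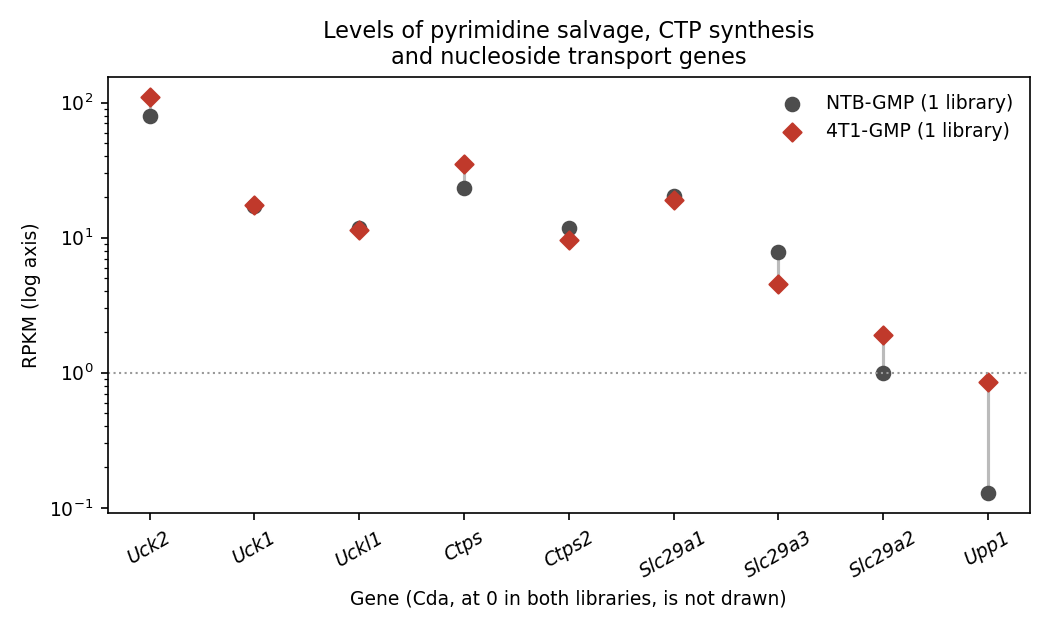
RPKM (log axis) of 9 of the 10 genes in the NTB-GMP library (gray circles) and the 4T1-GMP library (red diamonds), with a gray line joining the values of a gene and a dotted line at an RPKM of 1. *Uck2* stands highest in both libraries, at 79.6 and 110.5 RPKM, and *Slc29a2* and *Upp1* lie lowest.

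The proximal promoters of 3 of these genes, which had intervals apart from 0, are shown because they belong to one member of each family. Each is the 250 bases before the first start in the RefSeq promoter table on GRCm38.p6, read 5′ to 3′ on the gene's own strand. The *Uck2* window lies inside the span that RefSeq gives the gene, and the *Slc29a3* window runs into the end of its span. Capitals mark matches, on either strand, to GGGCGG (the core of the GC box) or CCAAT (the CCAAT box), where neighboring matches can share a base. The *Uck2* window is chr1:167285128-167285377, the *Ctps* window chr4:120570277-120570526 and the *Slc29a3* window chr10:60752783-60753032, all on the minus strand.
Uck2: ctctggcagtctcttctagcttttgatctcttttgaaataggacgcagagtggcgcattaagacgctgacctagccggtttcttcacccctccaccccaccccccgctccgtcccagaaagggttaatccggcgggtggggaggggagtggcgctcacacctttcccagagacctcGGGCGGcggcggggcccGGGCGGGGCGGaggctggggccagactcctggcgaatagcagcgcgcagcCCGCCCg
Ctps: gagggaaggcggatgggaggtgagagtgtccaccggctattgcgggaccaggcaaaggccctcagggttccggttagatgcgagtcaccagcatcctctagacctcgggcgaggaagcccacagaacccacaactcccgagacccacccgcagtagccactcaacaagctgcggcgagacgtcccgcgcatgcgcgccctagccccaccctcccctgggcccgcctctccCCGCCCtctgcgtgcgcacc
Slc29a3: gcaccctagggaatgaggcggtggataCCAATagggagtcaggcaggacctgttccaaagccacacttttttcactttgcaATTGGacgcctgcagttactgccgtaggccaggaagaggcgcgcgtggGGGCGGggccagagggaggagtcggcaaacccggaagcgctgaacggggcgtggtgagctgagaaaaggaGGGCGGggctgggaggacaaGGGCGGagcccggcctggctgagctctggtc
*Uck2* held 4 matches to GGGCGG, *Slc29a3* held 3 and *Ctps* held 1, and *Slc29a3* held 2 matches to CCAAT. G and C made up 66.0% of the *Uck2* window, 67.6% of the *Ctps* window and 63.6% of the *Slc29a3* window. Over the 10 genes, GGGCGG was in 5 of the 10 windows and CCAAT in 1, and neither CACGTG (the E-box read by the MYC family) nor TATAAA (the TATA box) was in any. Among 7988 such windows of tested genes, the share with a match was 60.8% for GGGCGG, 37.3% for CCAAT, 8.96% for CACGTG and 5.62% for TATAAA. A match is a stretch of letters and not a site of binding, and no binding was measured here.

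The uridine-cytidine kinases carry out the first phosphorylation of salvage. *Uck2*, on chromosome 1 (167222895 to 167285933 on GRCm38.p6), encodes the more active of the classical kinases and was the highest of the 10 genes. It had 1084 reads in NTB-GMP, equal to 79.6 RPKM, and 4436 reads in 4T1-GMP, equal to 110.5 RPKM. It was thus 1.39-fold higher in 4T1-GMP, a log2 ratio of 0.47 (interval 0.38 to 0.57). Its level exceeded that of 93.5% of tested genes in NTB-GMP and 94.7% in 4T1-GMP. Its ratio was above that of 85.1% of tested genes, and 29.9% of them lay at least as far from 0. In a bulk library, more cells of a type and more RNA per cell cannot be told apart.

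*Uck1* (chromosome 2, 32255002 to 32260105), the other classical kinase, had 339 reads in NTB-GMP, equal to 17.1 RPKM, and 1017 reads in 4T1-GMP, equal to 17.4 RPKM. The log2 ratio was 0.03 (interval -0.15 to 0.21), so no difference was detectable at this depth. *Uckl1* (chromosome 2, 181569149 to 181582027) encodes a kinase-like relative of these enzymes and had 216 reads in NTB-GMP, equal to 11.7 RPKM, and 623 reads in 4T1-GMP, equal to 11.5 RPKM. Its log2 ratio was -0.03 (interval -0.26 to 0.20), and again no difference was detectable. The signs of the *Uck1* and *Uckl1* ratios changed with the scaling of the libraries. *Uck1* overlaps *Pomt1* and *Uckl1* overlaps *Uckl1os*, both of which had reads here, and whether the counting used strand is not given in the sources used here.

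The kinases differed from each other inside each library, which can be read without any scaling between libraries. The shifts between libraries below follow from the ratios above, so they are not a separate result. *Uck2* stood at 4.67 times the RPKM of *Uck1* in NTB-GMP and at 6.37 times in 4T1-GMP. The log2 of that shift was 0.45, with a 95% conditional exact interval on the reads of 0.24 to 0.65. Relative to *Uckl1*, *Uck2* went from 6.79 to 9.64 times (log2 shift 0.51, interval 0.26 to 0.75). *Uck1* relative to *Uckl1* was 1.46 in NTB-GMP and 1.51 in 4T1-GMP, and the interval of that shift, -0.24 to 0.35, held 0. Of the summed RPKM of the 3 kinases, which was 108.4 in NTB-GMP and 139.4 in 4T1-GMP, *Uck2* made up 73.4% and 79.3%.

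The CTP synthases amidate UTP to CTP with glutamine as the nitrogen donor, and the paralogs differed between the libraries in opposite directions. *Ctps* (chromosome 4, 120539868 to 120570276) encodes CTPS1, the form known for its role in the expansion of activated lymphocytes. It had 645 reads in NTB-GMP, equal to 23.4 RPKM, and 2863 reads in 4T1-GMP, equal to 35.3 RPKM. This was 1.51-fold higher in 4T1-GMP, a log2 ratio of 0.59 (interval 0.47 to 0.72), above that of 90.3% of tested genes. The ratio sits at the 1.5-fold line, whose log2 is 0.585, so which side of it *Ctps* falls on depends on the scaling. *Ctps2* (chromosome X, 162901268 to 163034541) had 695 reads in NTB-GMP, equal to 11.7 RPKM, and 1687 reads in 4T1-GMP, equal to 9.63 RPKM. Its RPKM was 1.22-fold lower in 4T1-GMP, a log2 ratio of -0.28 (interval -0.41 to -0.15), and 24.3% of tested genes had a lower ratio.

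Inside the libraries, *Ctps* had 2.00 times the RPKM of *Ctps2* in NTB-GMP and 3.66 times in 4T1-GMP. The shift was 1.83-fold (log2 0.87, interval 0.69 to 1.05), and its direction follows from the 2 ratios above. As a share of the RPKM of both synthases, *Ctps* went from 66.7% to 78.5%. The summed RPKM of the pair was 35.1 in NTB-GMP and 44.9 in 4T1-GMP. *Ctps* and *Uck2* stood in nearly the same ratio in both libraries, 0.294 in NTB-GMP and 0.319 in 4T1-GMP, with an interval of the log2 shift of -0.04 to 0.28. Most listed cell cycle markers were higher in 4T1-GMP as well, and their part in the values of *Uck2* and *Ctps* was not tested. Of all tested genes, 54.7% had a log2 ratio above 0. Of 10 S phase markers 7 were higher, with a median log2 ratio of 0.23 (summed RPKM 897.3 in NTB-GMP and 1095 in 4T1-GMP). *Rrm2* differed most (56.6 and 144.9 RPKM), while *Mcm2*, *Mcm6* and *Tyms* were lower, with intervals that held 0. Of 10 G2 and M phase markers 9 were higher, with a median of 0.37 (556.2 and 673.5). The other, *Mki67*, was lower (log2 ratio -0.075, interval -0.103 to -0.047).

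**Figure D2:**
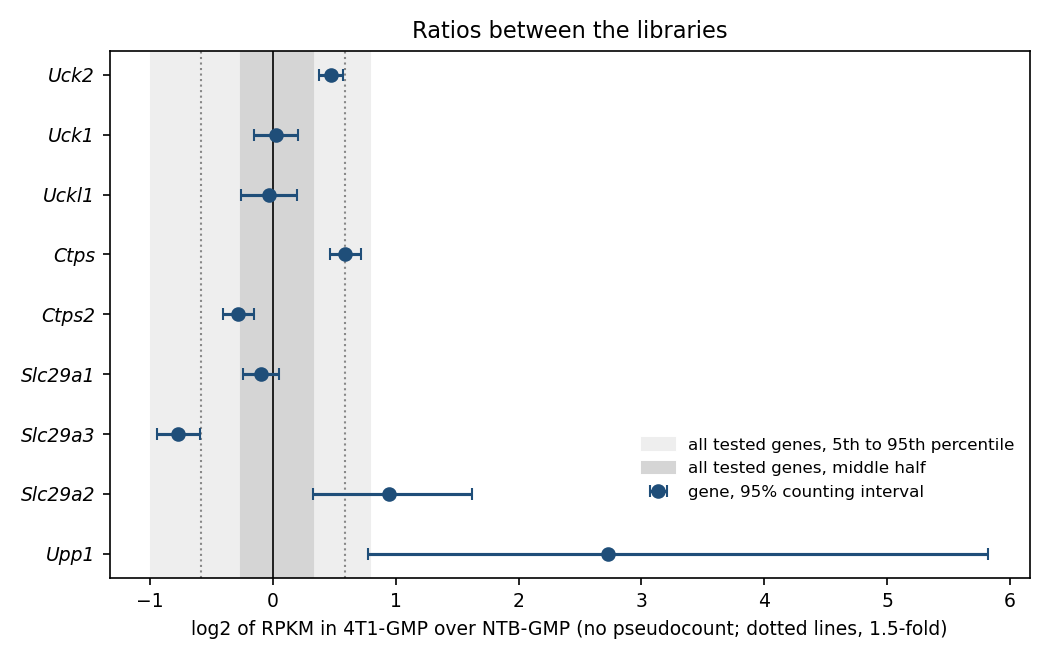
Log2 of the RPKM in 4T1-GMP over that in NTB-GMP, without a pseudocount, for the 9 genes above 0, with 95% counting intervals as bars, gray bands for the spread of all tested genes and dotted lines at 1.5-fold. *Uck2*, *Ctps*, *Slc29a2* and *Upp1* have intervals above 0, *Ctps2* and *Slc29a3* below 0, and *Uck1*, *Uckl1* and *Slc29a1* across 0.

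The equilibrative nucleoside transporters carry nucleosides down their gradient. *Slc29a1* (chromosome 17, 45585200 to 45599618) encodes ENT1, the main carrier of this kind at the plasma membrane of most cells, and was the highest of the 3. It had 515 reads in NTB-GMP, equal to 20.5 RPKM, and 1419 reads in 4T1-GMP, equal to 19.1 RPKM, with a log2 ratio of -0.10 (interval -0.24 to 0.05). Whether that interval holds 0 depends on the scaling, since its high bound is 0.051. Leaving *Rn45s* out of the library sizes (a shift of -0.164) would put it below 0. So would upper quartile scaling (-0.109) and plain totals of the recovered reads without *Rn45s* (-0.084). With plain totals (0.086) or centering on the median of all tested genes (-0.051), it would still hold 0. *Slc29a2* (chromosome 19, 5019057 to 5031972), which encodes the plasma membrane carrier ENT2, was low in both libraries. It had 0.993 RPKM in NTB-GMP from 25 reads and 1.91 RPKM in 4T1-GMP from 142 reads. The RPKM was 1.93-fold higher in 4T1-GMP, with a log2 ratio of 0.88 on the scale with the pseudocount and an interval of 0.33 to 1.62 for the plain ratio. In NTB-GMP, 1.61% of tested genes were lower than *Slc29a2*, and in 4T1-GMP 8.97% were.

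*Slc29a3* (chromosome 10, 60712072 to 60752849) encodes ENT3, which acts mainly inside the cell, at lysosomes, and is known for its part in macrophages. It had 416 reads in NTB-GMP, equal to 7.80 RPKM, and 719 reads in 4T1-GMP, equal to 4.57 RPKM. This was 1.71-fold lower in 4T1-GMP, a log2 ratio of -0.76 (interval of the plain ratio -0.95 to -0.59), and 7.92% of tested genes had a lower ratio. It was the one gene of the 10 at least 1.5-fold lower, under each of the alternatives tried. Markers of monocytes and dendritic cells were also lower in 4T1-GMP, all 8 tested of a list of 10. The list summed to 163.7 RPKM in NTB-GMP and 33.5 in 4T1-GMP, with none at 0. *Ly86* and *Cx3cr1* were under an RPKM of 1 in 4T1-GMP and were tested only through their level in NTB-GMP. The part of these markers in the *Slc29a3* result was not tested.

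The balance among these transporters inside the libraries does not depend on the scaling between them. The ratios above fix its direction, so it is not a separate result. *Slc29a1* had 2.62 times the RPKM of *Slc29a3* in NTB-GMP and 4.18 times in 4T1-GMP, a 1.59-fold shift (log2 0.67, interval 0.44 to 0.90). It had 20.6 times the RPKM of *Slc29a2* in NTB-GMP and 9.99 times in 4T1-GMP (log2 shift -1.04, interval -1.74 to -0.40). *Slc29a2* relative to *Slc29a3* went from 0.127 to 0.419 (log2 shift 1.72, interval 1.07 to 2.42). *Slc29a3* made up 26.7% of the summed RPKM of these 3 genes in NTB-GMP and 17.9% in 4T1-GMP, and *Slc29a2* 3.4% and 7.47%. The summed RPKM was 29.2 and 25.6.

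**Figure D3:**
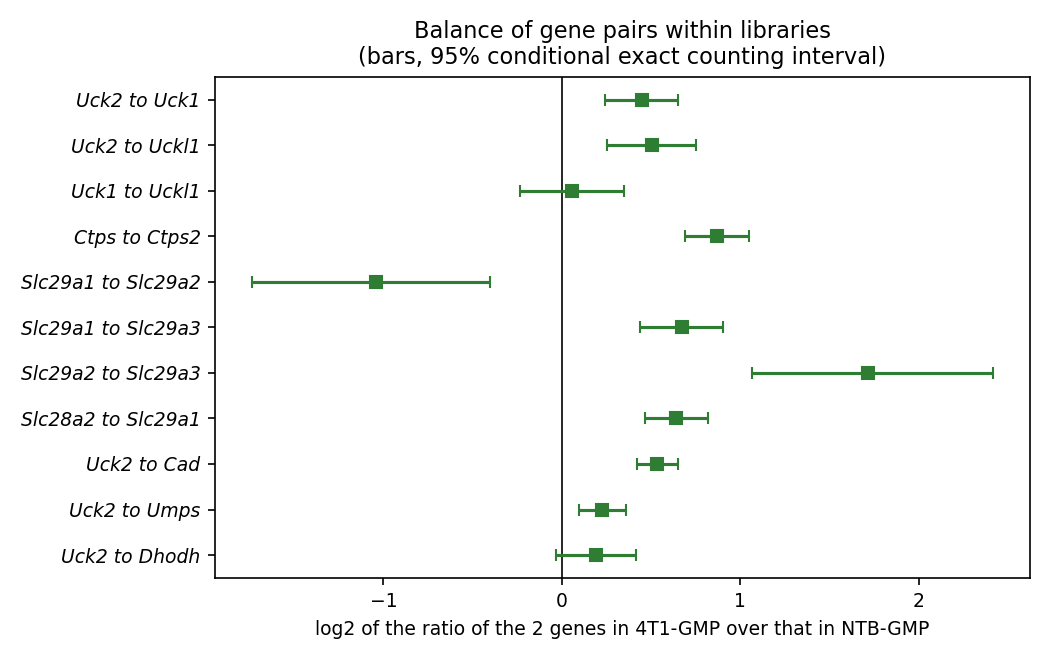
Log2 of the RPKM ratio of a gene pair in 4T1-GMP over the same ratio in NTB-GMP (squares), with 95% conditional exact intervals on the reads as bars, for 11 of the 16 pairs computed. The shift of *Ctps* relative to *Ctps2* is 0.87, and among the pairs drawn the bars cross 0 for *Uck1* to *Uckl1* and *Uck2* to *Dhodh*.

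The last of the 10 genes act on the nucleosides themselves. *Upp1* (chromosome 11, 9118008 to 9136170) encodes uridine phosphorylase, which splits uridine into uracil and ribose-1-phosphate. It had 0.128 RPKM in NTB-GMP from 2 reads and 0.848 RPKM in 4T1-GMP from 39 reads. The ratio of the RPKM was 6.61, with a counting interval of 1.71 to 56.5, and the level stayed under an RPKM of 1 in both libraries. All 11 listed markers of mature neutrophils were higher in 4T1-GMP too, with a summed RPKM of 512.1 in NTB-GMP and 4055 in 4T1-GMP. Of these markers, *Mmp8*, *Mmp9* and *Ly6g* were under an RPKM of 1 in NTB-GMP and were tested only through their level in 4T1-GMP. The part of the neutrophil markers in the *Upp1* value was not tested. *Cda* (chromosome 4, 138338528 to 138368311), which encodes cytidine deaminase, the enzyme that turns cytidine into uridine, was listed at 0 in both libraries, and no ratio was computed. *Hba-a1*, an adult globin gene, was also listed at 0 in both. A listed 0 was not read as absence of the transcript, since these values cannot tell absence from reads that were not counted.

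Among the other genes of pyrimidine handling, 34 were listed by role, of which 24 were tested. Of the 24, 18 had a log2 ratio above 0, which 54.7% of all tested genes had, and 6 below it, and the median was 0.18, against 0.05 over all tested genes. At least 1.5-fold higher were 4, *Ugp2*, *Dck*, *Nt5c3* and *Cds1*, against 9.80% of all tested genes, and at least 1.5-fold lower was 1, *Cmpk2*, against 11.6%. *Cmpk2* was under an RPKM of 1 in 4T1-GMP and was tested only through its level in NTB-GMP. The interval lay above 0 for 12 of the 24, against 36.3% of all tested genes, lay below 0 for 1, against 28.0%, and held 0 for 11. Intervals that held 0 include those of *Dtymk* and *Nt5c*, whose recovered counts are lower bounds, so these intervals may be wider than needed. The counts of genes were taken at the deposited scaling, and the related genes were not run under the alternatives given below.

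The de novo enzymes are the alternative source of the same nucleotides. *Dhodh*, the target of BRQ, had an RPKM of 11.2 in the NTB-GMP library and 13.6 in the 4T1-GMP library, at a log2 ratio of 0.28 and an interval from 0.08 to 0.48. *Umps*, which makes UMP from orotate, had 40.8 and 48.4 RPKM (log2 ratio 0.25, interval 0.16 to 0.34). *Cad*, which encodes the enzyme of the first steps, had 40.0 and 38.4 RPKM (log2 ratio -0.06, interval -0.12 to 0.00). Leaving *Rn45s* out of the library sizes would move every plain log2 ratio by -0.164. That exceeds the low bounds of *Dhodh* (0.081) and *Umps* (0.159), so their intervals would then hold 0. *Uck2* was above these 3 de novo enzymes in both libraries. Its RPKM was 1.99 times that of *Cad* in NTB-GMP and 2.88 times in 4T1-GMP (log2 shift 0.53, interval 0.42 to 0.65). Relative to *Umps*, it went from 1.95 to 2.28 times (log2 shift 0.23, interval 0.10 to 0.36). Relative to *Dhodh*, it was 7.12 times in NTB-GMP and 8.14 times in 4T1-GMP, and the interval of that shift, -0.03 to 0.41, held 0. *Uck1* relative to *Dhodh* was 1.53 and 1.28 (interval of the log2 shift -0.53 to 0.02).

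The concentrative transporter *Slc28a2* (CNT2), which moves purine nucleosides and uridine with sodium, was chosen for mention after its values were seen. It had an RPKM of 26.3 in the NTB-GMP library and 38.4 in the 4T1-GMP library, with a log2 ratio of 0.54 (interval 0.45 to 0.64). It was thus at 1.29 times the RPKM of *Slc29a1* in NTB-GMP and at 2.01 times in 4T1-GMP (log2 shift 0.64, interval 0.46 to 0.82). Of the other carriers on the list, *Slc28a3* had 1 read in NTB-GMP against 4 in 4T1-GMP, and *Slc28a1* and *Slc29a4* were listed at 0 in both. Of the genes for other phosphorylases and the uracil transferase, *Upp2* was listed at 0 and *Tymp* had 5 reads in NTB-GMP against 1 in 4T1-GMP. *Uprt*, the transferase, had a log2 ratio of -0.22, with an interval of -0.64 to 0.21.

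Further kinases act on the monophosphates and on deoxynucleosides. *Cmpk1*, which encodes the kinase that turns UMP and CMP into their diphosphates, had an RPKM of 39.1 in the NTB-GMP library and 43.6 in the 4T1-GMP library (log2 ratio 0.16, interval 0.04 to 0.28). *Cmpk2*, a mitochondrial kinase known as an interferon-stimulated gene, had 3.20 RPKM from 104 reads in NTB-GMP and 0.627 RPKM from 60 reads in 4T1-GMP (log2 ratio -2.18, interval -2.84 to -1.88). *Dck*, which encodes deoxycytidine kinase, had 10.4 and 16.5 RPKM (log2 ratio 0.67, interval 0.50 to 0.85). *Tk1*, the cytosolic thymidine kinase of S phase, had 36.7 and 36.8 RPKM, with a log2 ratio of 0.00 (interval -0.14 to 0.15). *Uck2* relative to *Tk1* was 1.38-fold higher in 4T1-GMP than in NTB-GMP (log2 shift 0.47, interval 0.29 to 0.64).

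The nucleotidases undo the kinase step, and all 5 tested genes of this group had a ratio above 0, against 54.7% of all tested genes. Their median log2 ratio was 0.29, and 3 of the 5 intervals lay above 0, against 36.3% of all tested genes. The interval of *Nt5c* held 0 (-0.16 to 0.78), but its recovered counts of 50 and 181 reads are lower bounds. That interval may be wider than needed. *Nt5c3*, a pyrimidine nucleotidase, had an RPKM of 23.4 in the NTB-GMP library and 36.5 in the 4T1-GMP library (log2 ratio 0.64, interval 0.49 to 0.80). Of the genes for pyrimidine breakdown, *Dpyd* and *Dpys* were listed at 0 in both and *Upb1* had 1 read in each library. Among users of the nucleotides, *Cds1*, which joins CTP to phosphatidic acid, had 48 reads in NTB-GMP against 223 in 4T1-GMP (log2 ratio 0.61, interval 0.20 to 1.14). *Ugp2*, which makes UDP-glucose from UTP, had 13.7 and 23.3 RPKM (log2 ratio 0.76, interval 0.61 to 0.91). *Pcyt1a*, which encodes the main enzyme coupling CTP to phosphocholine, had 28.1 and 28.7 RPKM, a log2 ratio of 0.03.

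**Figure D4:**
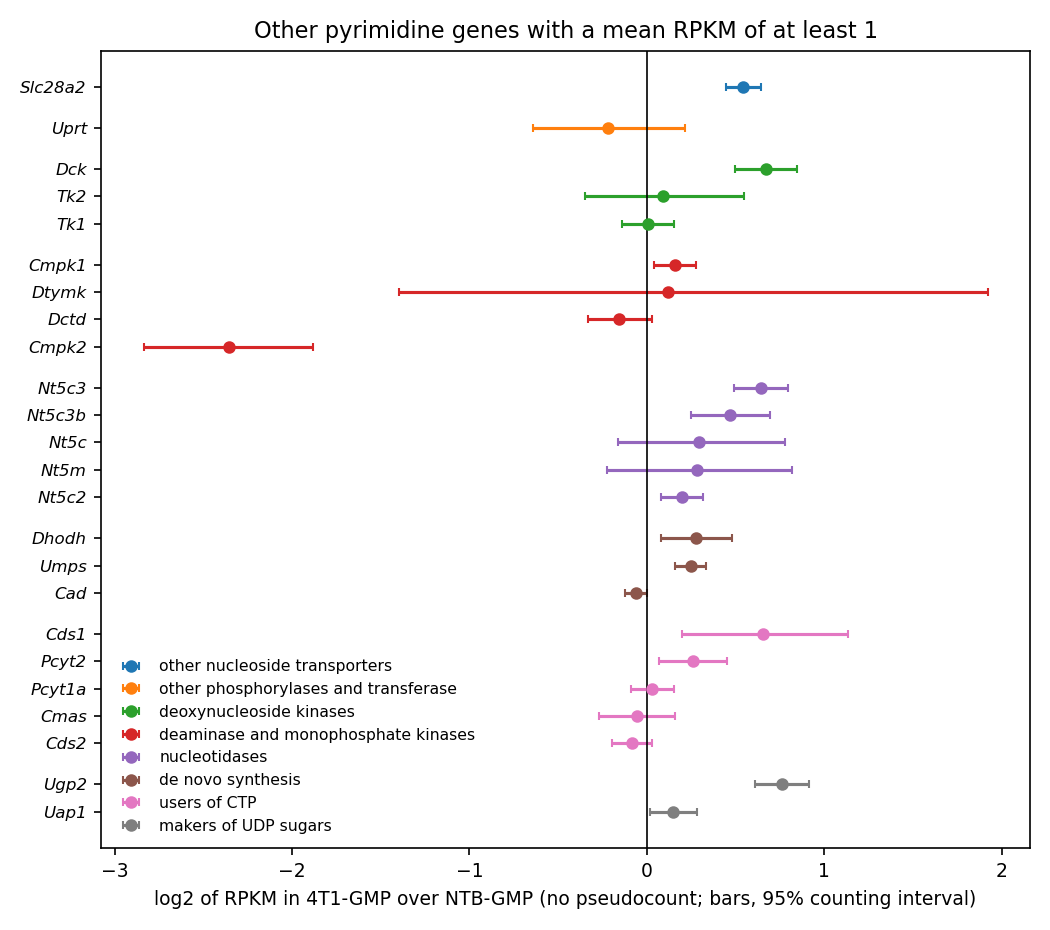
Log2 of the RPKM in 4T1-GMP over that in NTB-GMP, without a pseudocount, for the 24 tested genes of the related list, colored by role, with 95% counting intervals as bars. *Cmpk2* lies farthest to the left, and the wide bar of *Dtymk* comes from a recovered count that is a lower bound (5 and 16 reads).

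The libraries also differed in markers of other cell types, and the part of these in the values above was not tested. The summed RPKM of 10 GMP markers was 10660 in NTB-GMP and 16340 in 4T1-GMP, with 6 of the 10 higher and 4 lower. *Kit* (78.5 to 49.1 RPKM) and *Cd34* (153.8 to 59.4 RPKM) were among those lower, and *Mpo* was at 5163 and 5625 RPKM. Beside the neutrophil and monocyte markers given above, 3 tested of 7 stem and early progenitor markers were lower in 4T1-GMP (34.6 and 10.2). So were 3 tested of 7 erythroid and megakaryocyte markers (21.7 and 6.10) and all 6 basophil, mast cell and eosinophil markers (1746 and 632.0). *Gata1* and *Klf1*, of the erythroid list, were under an RPKM of 1 in 4T1-GMP and were tested only through their level in NTB-GMP. Of 6 lymphoid markers, 1 was tested, *Nkg7*, and it was higher (191.0 and 337.2 for the list). Of 4 markers of the 4T1 carcinoma, *Epcam* and *Krt14* were listed at 0 in both libraries, and the list summed to 12.9 and 9.01 RPKM. Nearly all of that sum was *Krt18*, at 12.8 RPKM in NTB-GMP and 8.90 in 4T1-GMP (log2 ratio -0.52, interval -0.79 to -0.27). *Krt8* was at 0.054 and 0.111 RPKM.

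The directions of *Uck2*, *Ctps*, *Slc29a2*, *Ctps2* and *Slc29a3* were kept under all 9 alternatives to the scaling, pseudocount and depth. A pseudocount cannot change a sign, and the uniform scalings shift every plain log2 ratio alike. Among these alternatives, only quantile normalization and thinned reads could change the sign of a gene separately. A pseudocount still changes the size of each ratio by a different amount. With a pseudocount of 1, *Slc29a2* was at 0.55 and *Uck2* at 0.47. *Uck2* ranged in log2 ratio from 0.22 to 0.56, *Ctps* from 0.42 to 0.67 and *Slc29a2* from 0.55 to 1.11. *Ctps2* ranged from -0.44 to -0.19 and *Slc29a3* from -0.92 to -0.66. *Slc29a1* stayed below 0 throughout (-0.26 to -0.01), while *Uck1* (-0.14 to 0.11) and *Uckl1* (-0.19 to 0.05) took either sign.

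**Figure D5:**
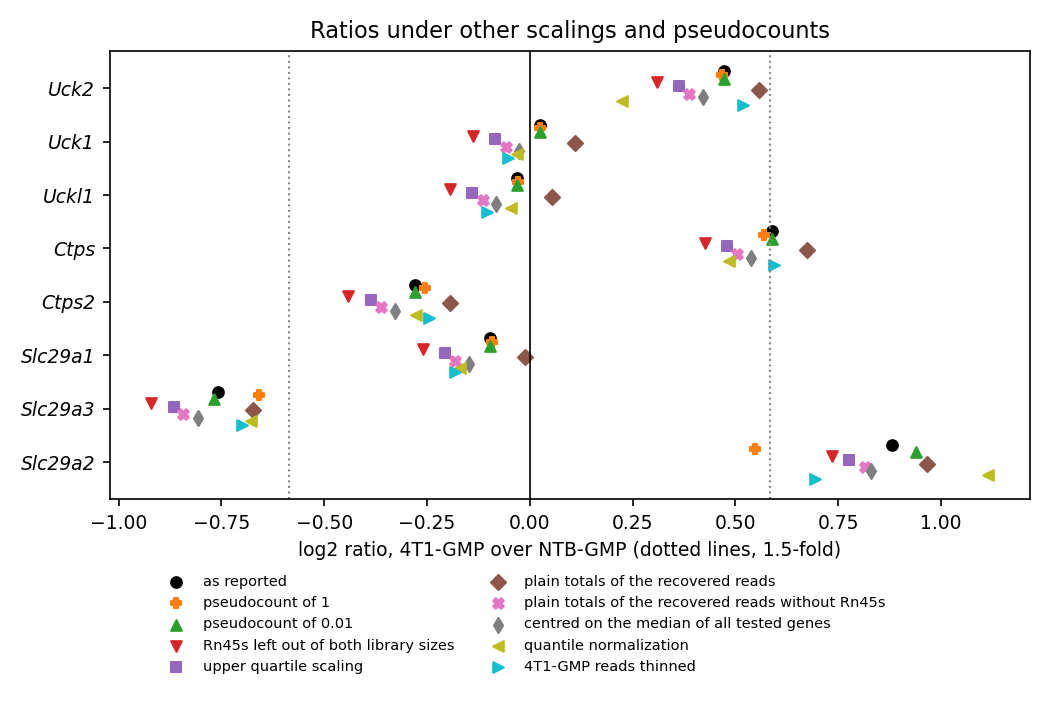
Log2 ratio of the 8 tested genes as reported (black circles) and under 9 alternatives (other symbols), with dotted lines at 1.5-fold. *Uck2* and *Ctps* stay to the right of 0 and *Ctps2* and *Slc29a3* to the left under each one, while *Uck1* and *Uckl1* lie on either side.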

How the data were processed

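RNA of 1 library of NTB-GMP and 1 of 4T1-GMP was analyzed. The authors deposited RPKM, 1 value per gene symbol and library. The submitters' processing notes name CASAVA 1.8.2, cutadapt 1.2.1, TopHat2 2.0.13, Picard 1.97, HTSeq 0.6.1, edgeR 3.12.1 and the mm10 build. The annotation, gene lengths and strand setting are not given in the sources used here.

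Read counts came out whole for all 14833 genes above 0 in either library (relative tolerance 1e-06). A recovered count can be too low by a factor common to both libraries, so counts are lower bounds (9486697 and 26353075 in all) and intervals are at least as wide as needed. The library sizes were not whole numbers, and a weighted trimmed mean log2 ratio (30% of ratios and 5% of levels trimmed) left 0.0022 between them, so they are the scaled sizes such a method gives. The recovery was tested on simulated data.

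Ratios used a pseudocount of 0.1 and a minimum mean RPKM of 1, and calls used a fold of 1.5. Paralog balances used conditional exact intervals. Every balance comes from the same reads as the ratios of its 2 genes and is not a separate result. All 10 members were named, and of the related genes the de novo enzymes and those at least 1.5-fold apart. Others named, and balances beyond those of *Uck2* with *Uck1*, *Ctps* with *Ctps2*, and *Slc29a1* with *Slc29a2* and *Slc29a3*, were chosen after their values were seen. The members and lists were chosen with earlier results of these data known. Alternatives, run for the members only, were pseudocounts of 1 and 0.01, other minimums, other scalings and thinned reads. Promoters came from RefSeq on GRCm38.p6, with all 10 members matched. Python 3.11.15, numpy 2.4.6, pandas 2.3.3, scipy 1.17.1 and matplotlib 3.10.9 were used.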

Additional observations from a re-analysis of the deposited data

How the results depend on the processing

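Of the 72 values of single tested genes under alternatives (8 genes, 9 alternatives), 66 stayed within the counting interval of the value reported, 6 moved beyond it, and none of the called values changed sign. With *Rn45s* left out of both library sizes, the log2 ratio was 0.31 for *Uck2*, 0.42 for *Ctps*, -0.44 for *Ctps2* and -0.26 for *Slc29a1*. *Uck2* was at 0.36 with upper quartile scaling and at 0.22 with quantile normalization. The number of members at least 1.5-fold higher, 2 as reported, was 0 with a pseudocount of 1. It was 1 with a mean RPKM of at least 5, with *Rn45s* left out, with upper quartile scaling, with plain totals of the recovered reads without *Rn45s* (added after seeing the data), with centering on the median of all tested genes, and with quantile normalization. With all genes above 0 in either library it was 3, *Upp1* included. The number at least 1.5-fold lower was 1 throughout. Under the scalings and the thinning for which intervals were recomputed, the number of intervals above 0 was 3, and that below 0 was 2 or 3. It was 3, with *Slc29a1* included, with *Rn45s* left out, upper quartile scaling and plain totals without *Rn45s*. The median log2 ratio of the members lay between -0.17 and 0.08.

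The scalings moved every plain log2 ratio by -0.16 (*Rn45s* left out), 0.09 (plain totals), -0.08 (plain totals without *Rn45s*), -0.11 (upper quartile) and -0.05 (centering). The deposited library sizes already match a trimmed-mean scaling, so leaving out *Rn45s* corrects on top of it. Balances within a library do not move with these settings. No replicate could be left out, and no paired analysis was possible because there was 1 library a group. Depth limits *Slc29a2* (25 reads in NTB-GMP) and *Upp1* (2 reads) most.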
